A study of Mus musculus with 180 samples.

Results

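The genes described here are those of the cytosolic ribosomal proteins, the proteins that with ribosomal RNA build the large and the small subunit of the ribosome outside mitochondria. They were chosen by symbol: Rpl or Rps followed by a number and at most one of the letters a, x, l and y, together with Rpsa, Rplp0, Rplp1, Rplp2, Rpl22l1, Rps27l and Rpl36al. The rule found 85 of the 54429 genes of the count table, 53 of the large subunit and 32 of the small subunit. Of these, 84 had at least 1 count in some library, and Rpl10l had 0 counts in every library. The rule uses symbols and no measured value, though it was set with earlier results of these data known.

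RNA was counted in 180 libraries from the hippocampus of 30 male mice, 6 libraries per mouse. All mice came from a cross of the Camk2a-cre transgenic line T29-1Stl/J (B6 background) with the Rpl22tm1.1Psam/J line (B6N.129), in which Cre driven by the Camk2a promoter makes forebrain excitatory neurons produce HA-tagged Rpl22 from the gene's own locus. No group lacked the Cre or the tagged allele, and the age of the mice is not given in the sources used here. The groups were NoCFC Sleep (8 mice), NoCFC SD (7), CFC Sleep (8) and CFC SD (7), where CFC stands for contextual fear conditioning and SD for sleep deprivation, of a length that the labels do not state. From each mouse a cytosolic fraction (supernatant) and a membrane fraction (pellet) were each divided into 3 libraries, namely RNA captured with an antibody against HA ("Camk2a"), RNA captured with an antibody against phosphorylated S6 at residues 244-247 ("pS6") and uncaptured RNA ("Input"). The pS6 capture takes ribosomes from any cell in which S6 is phosphorylated, not from Camk2a neurons alone. The libraries held 11.98M to 26.95M counts, with a median of 18.91M.

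Ribosomal proteins are needed in near equal numbers, and their messenger RNAs are among the most abundant in most cells. Many of these messages begin with a C followed by a run of pyrimidines, the 5′ terminal oligopyrimidine (TOP) motif, through which the mTORC1 pathway and the protein LARP1 control their translation together. The product of Rps6 is the S6 protein, which S6 kinase phosphorylates downstream of mTORC1 and other kinases phosphorylate in active neurons, and the product of Rpl22 is the protein that carries the HA tag in these mice. The 2 captures therefore pull on products of genes in the set, while the libraries count the messages those ribosomes carry.

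The sequences at the start sites show a pyrimidine run that begins within 10 bases of the start in some members and none placed so in others. Each window holds 15 bases before and 15 after a listed start in GRCm38.p6, from the RefSeq promoter table, on the gene's strand. Capitals mark the longest run that begins within 10 bases of the start. Rps6 and Rpl22, the genes of the captured proteins, are shown first, then members at the extremes of the comparisons and the stalk gene Rplp2.
Rps6, chr4:86857353-86857382, minus strand: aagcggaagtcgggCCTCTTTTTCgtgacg
Rpl22, chr4:152325711-152325740, plus strand: ttcgccctgggaaaagcaatagctggccga
Rpl22, other start, chr4:152324421-152324450, plus strand: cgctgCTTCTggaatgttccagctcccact
Rps27, chr3:90213634-90213663, minus strand: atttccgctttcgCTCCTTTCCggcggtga
Rplp2, chr7:141447636-141447665, plus strand: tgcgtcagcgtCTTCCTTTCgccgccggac
Rpl22l1, chr3:28805493-28805522, plus strand: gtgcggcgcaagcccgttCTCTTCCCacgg
Rps28, chr17:33824548-33824577, minus strand: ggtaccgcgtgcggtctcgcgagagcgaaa
Rpl41, chr10:128549154-128549183, minus strand: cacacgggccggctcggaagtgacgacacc
Rpl4, chr9:64173372-64173401, plus strand: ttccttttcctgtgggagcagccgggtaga
The search was for C followed by at least 4 bases that are each C or T, on the gene's strand, starting within 10 bases of a listed start. The Rpl4 window holds such a run further before the start, outside the search, and it is therefore left in lower case. Of the 85 members, 63 were matched to the table, and 40 of those (63.5%) held such a run, against 34.4% of all 27025 genes with a listed start. A gene with several listed starts counts if any has a run, and Rpl22 counts through its second listed start, shown after the first. A run at the start itself was found in 14 members (22.2%), against 3.0% of all genes and none of 69 matched genes of mitochondrial ribosomal proteins. A match is a description of these letters, and a window without one says nothing about the message's true first base.

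The sum of the 85 genes, in CPM (a library's counts scaled to a common total), differed between the library types. In the cytosolic fraction the lowest, median and highest of 30 libraries were 3548, 4250 and 5632 CPM for Camk2a, 5129, 5838 and 7003 for pS6, and 4499, 5390 and 6835 for Input. In the membrane fraction they were 2772, 3379 and 4066 CPM for Camk2a, 4291, 5059 and 6593 for pS6, and 3139, 3801 and 4559 for Input. The membrane Camk2a libraries were the lowest and all lay below every membrane pS6 library. Within mice, the sum was higher in pS6 than in Camk2a in 30 of 30 mice in both fractions, with median ratios of 1.36 (cytosolic) and 1.51 (membrane). It was higher in pS6 than in Input in 30 of 30 mice in the membrane fraction (median ratio 1.37) and in 21 of 30 in the cytosolic fraction (1.05). The membrane library had the lower sum in 30 of 30 mice in Camk2a (median ratio 0.764) and Input (0.668), and in 26 of 30 in pS6 (0.885). These sums are scaled to library totals only, and with TMM scaling the median member differed between fractions by less, as given with that comparison.

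**Figure D1:**
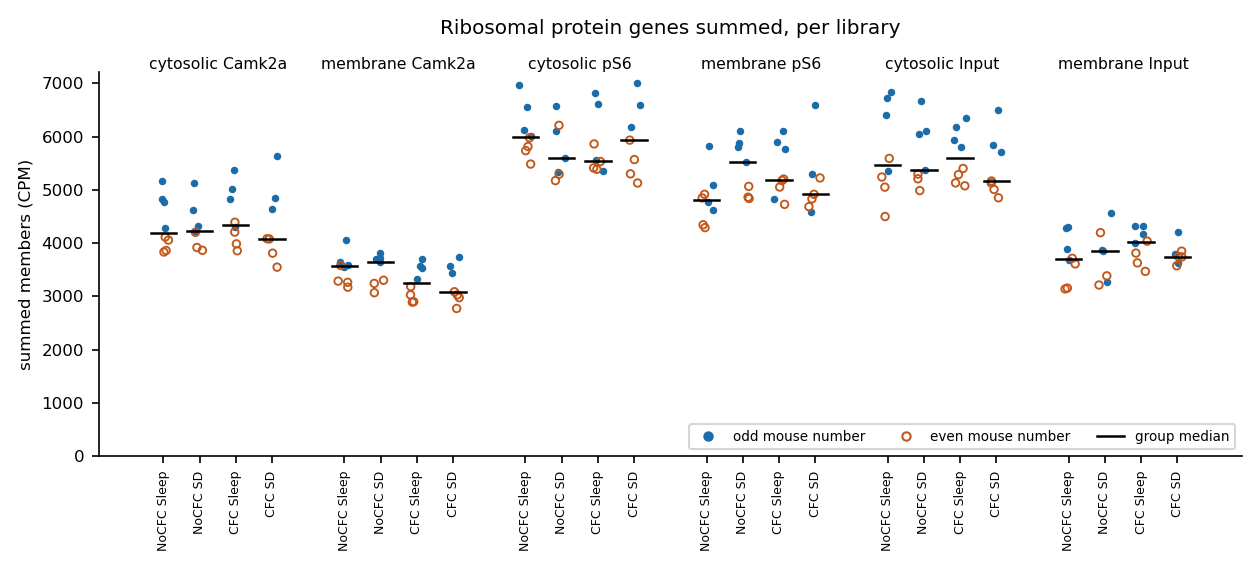
Summed CPM of the 85 ribosomal protein genes (vertical axis, from 0) in each of the 180 libraries, by library type and group (horizontal axis), with filled points for odd and open points for even mouse numbers and a line at each group's median. With all groups pooled, pS6 has the highest median in each fraction, though in cytosolic CFC Sleep the Input line is slightly higher. By library type, the medians of odd-numbered mice are 1.10 to 1.21 times those of even-numbered mice.

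One split of the libraries followed no group. The summed CPM of mice with odd numbers had a median 1.10 to 1.21 times that of mice with even numbers in the 6 library types. All 15 odd-numbered libraries lay above the median of the even-numbered ones in both Camk2a types and in cytosolic Input, as did 13, 11 and 13 of 15 in cytosolic pS6, membrane pS6 and membrane Input. In a fit with number parity as a term, the median member differed by 0.32 (log2, odd minus even) in cytosolic Camk2a and by 0.16 in membrane Input, the ends of the range. The median over all genes lay between -0.01 and 0 in each type, but short genes outside the set were also higher in odd-numbered mice. In cytosolic Camk2a other genes of up to 300 coding bases had a median of 0.18 and members of that length 0.37. Other sums moved with the numbers too. The mitochondrial ribosomal protein genes summed to 4003 to 4603 CPM in odd and 3616 to 3969 CPM in even cytosolic Camk2a libraries, and the excitatory neuron markers to 10870 to 12090 and 9597 to 10840 CPM, without overlap in either set. Mitochondrially encoded RNA in membrane Input had a median of 66600 CPM in odd and 77110 CPM in even libraries. In cytosolic Camk2a the difference was 0.47 ± 0.05 (SE) for Rplp2, 0.26 ± 0.04 for Rps6 and 0.12 ± 0.04 for Rpl22. Odd and even numbers were spread evenly over the groups, with 4 and 4 mice in NoCFC Sleep, 4 and 3 in NoCFC SD, 4 and 4 in CFC Sleep, and 3 and 4 in CFC SD. The labels do not say what the numbers record, the split was noticed after the values were seen, and its part in the results was not tested beyond a fit with parity as a term.

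Per kilobase of transcript, the acidic stalk gene Rplp1 and the large subunit gene Rpl4 were the highest members in 4 of the 6 types. The median level of Rplp1 per kilobase ran from 171 CPM in cytosolic Camk2a to 358 CPM in membrane pS6, and that of Rpl4 from 171 CPM in membrane Camk2a to 247 CPM in cytosolic Input. Rpl41, which encodes the shortest of the proteins, ranked first in cytosolic pS6 at 377 CPM per kilobase but 17th in cytosolic Camk2a at 82.0. At the other end Rpl39l, Rpl24, Rpl6l and Rpl32l had medians below 0.4 CPM per kilobase in each type. The annotation lists Rpl6l and Rpl32l as processed pseudogenes. For Rpl24, 47.0% of the exon bases lie in another annotated gene, and Rps10, with 28.7% of its bases so placed, had medians of 0.271 to 1.59 CPM. Reads of many members cannot be placed uniquely: 82 of 85 share at least 1 stretch of 50 bases with another annotated gene, the median member shares 49.3% of them, and 41 share 50% or more. Per transcript position, 98.6% were shared for Rps27, 84.6% for Rps6 and 5.2% for Rpl22, so values for Rps27 and Rps6 are less certain than those for Rpl22.

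Rpl22 (ENSMUSG00000028936.15, chr4:152325742-152334071, plus strand) had, within each fraction, its lowest median in the Camk2a libraries, where its tagged protein is captured, and its highest in the pS6 libraries. Its lowest, median and highest CPM over 30 mice were 25.4, 30.3 and 35.9 in cytosolic Camk2a, 40.5, 46.4 and 52.9 in cytosolic pS6, and 38.3, 42.4 and 51.3 in cytosolic Input. The cytosolic Camk2a range lay wholly below those of cytosolic pS6 and cytosolic Input. In the membrane fraction they were 20.1, 25.2 and 27.8 for Camk2a, 30.7, 38.1 and 52.0 for pS6, and 25.0, 28.9 and 33.9 for Input, and the Camk2a and pS6 ranges again did not overlap. By edgeR's quasi-likelihood test with Benjamini-Hochberg adjustment over all genes, Rpl22 was lower in Camk2a than in Input by a log2 fold change of -0.36 ± 0.03 (SE, adjusted p = 5.11e-17, lower in 30 of 30 mice) in the cytosolic and -0.10 ± 0.03 (adjusted p = 0.00346, lower in 25 of 30) in the membrane fraction. It was higher in pS6 than in Camk2a by 0.43 ± 0.03 (adjusted p = 6.12e-21) and 0.49 ± 0.04 (adjusted p = 8.29e-17), in 30 of 30 mice each, by the same edgeR test. Between fractions Rpl22 differed in Input (-0.31 ± 0.03, lower in the membrane fraction in 30 of 30 mice). In Camk2a the difference was -0.03 ± 0.03 (edgeR adjusted p = 0.371) and in pS6 -0.02 ± 0.04 (edgeR adjusted p = 0.548). These differences are TMM-scaled. In CPM, scaled to library totals only, the median was lower on membranes in Camk2a (25.2 against 30.3) and in pS6 (38.1 against 46.4). The fraction difference of Rpl22 in the captures thus depends on the scaling.

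Rps6 (ENSMUSG00000028495.14, chr4:86854660-86857412, minus strand) was set apart from Rpl22 by a larger difference between fractions. Its lowest, median and highest CPM were 49.6, 58.3 and 72.7 in cytosolic and 28.7, 35.04 and 42.0 in membrane Camk2a, and 68.2, 80.3 and 98.3 in cytosolic and 40.5, 46.9 and 57.3 in membrane pS6. In Input they were 61.1, 70.8 and 84.1 in the cytosolic and 29.4, 36.3 and 46.2 in the membrane fraction. In all 3 kinds of library the membrane range lay below the cytosolic range, with log2 fold changes of -0.47 ± 0.04 (Camk2a), -0.55 ± 0.04 (pS6) and -0.70 ± 0.04 (Input), each lower in 30 of 30 mice. Their edgeR adjusted p values were 4.35e-16, 1.67e-20 and 5.6e-26. In pS6 against Camk2a, Rps6 was higher by 0.31 ± 0.04 (cytosolic, 30 of 30 mice) and 0.28 ± 0.04 (membrane, 29 of 30), with edgeR adjusted p values of 7.42e-10 and 2.67e-10. Neither gene was at the edge of the set: the median member's pS6 to Camk2a difference was 0.39 for cytosolic and 0.53 for membrane libraries.

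**Figure D2:**
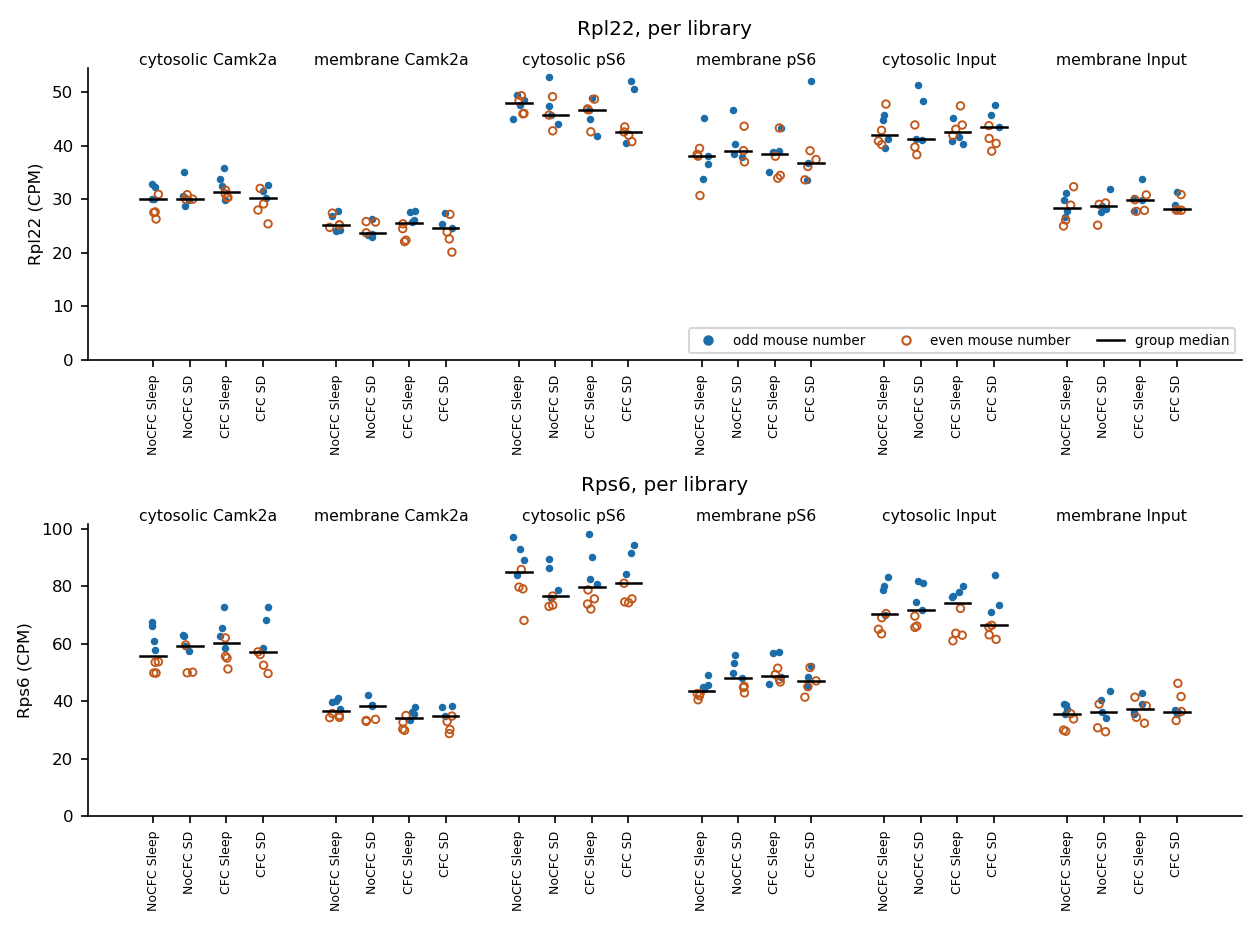
CPM of Rpl22 (top) and Rps6 (bottom) in every library (vertical axes, from 0), by library type and group, with filled points for odd and open points for even mouse numbers and a line at each group's median. Within each fraction Rpl22 has its lowest median in Camk2a, and the medians of both genes are lower in every membrane type than in its cytosolic counterpart.

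Most members were higher in the pS6 than in the Camk2a libraries, in both fractions. Of 80 tested members, 58 were higher and 14 lower in cytosolic pS6 than in cytosolic Camk2a, where 89.8% of all genes tested passed the test, 47.2% as higher and 42.6% as lower. In the membrane fraction 74 of 80 were higher and 1 was lower, and 82.3% of all genes passed, 44.7% as higher and 37.6% as lower. With so many genes past the threshold, a count of members called carries little by itself, and sizes say more. The median member differed by 0.39 for cytosolic and 0.53 for membrane libraries, against 0.07 and 0.09 over all genes tested. Large and small subunit genes had like medians, 0.43 and 0.36 in the cytosolic and 0.51 and 0.58 in the membrane fraction. A difference of at least 2-fold was reached by 14 members in the cytosolic fraction, where 22.3% of all genes were higher in pS6 by that much, and by 13 in the membrane fraction, where 16.5% were. All of these members were higher in pS6. The counts include Rpl3l and Rpl36al, and in the membrane fraction Rps10, which passed the filter on low counts in pS6 and not in Camk2a and therefore had to differ.

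The members that differed most encode some of the smallest proteins of the ribosome. Rpl41 had a lowest, median and highest CPM of 39.5, 47.7 and 73.3 in cytosolic Camk2a and of 178, 220 and 294 in cytosolic pS6, so that the ranges were far apart. Its log2 fold change was 2.01 ± 0.06 (edgeR adjusted p = 7.9e-37) and it was 1.49 ± 0.06 in the membrane fraction. Rps29, a zinc-binding protein of the small subunit, rose from a median of 18.7 to one of 67.4 CPM (1.72 ± 0.08, edgeR adjusted p = 2.13e-28), and by 1.55 ± 0.08 in the membrane fraction. Rps28 and Rpl39 were higher by 1.596 ± 0.065 and 1.52 ± 0.06 in the cytosolic and by 1.39 ± 0.07 and 1.43 ± 0.06 in the membrane fraction. All 4 were higher in 30 of 30 mice in both fractions. Rps10, at low counts, had values of 1.71 ± 0.13 and 1.30 ± 0.20, and on membranes it passed the filter on low counts only through pS6, so that the membrane value had to be high. Lower in cytosolic pS6 were Rps4l (-0.83 ± 0.06), Rpl5 (-0.49 ± 0.04), Rpl15 (-0.38 ± 0.02), Rpl4 (-0.37 ± 0.03) and Rpl6 (-0.32 ± 0.04), each in 30 of 30 mice. Of these 5, Rps4l was also lower in membrane pS6 (-0.82 ± 0.06), while Rpl4 was higher there (0.07 ± 0.02) and the others lay between -0.04 and 0.03.

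The order of the members followed the length of their coding sequence, and so did that of other genes. In the cytosolic pS6 to Camk2a comparison, the 10 members with up to 300 coding bases had a median of 1.22, the 47 with over 300 and up to 600 bases 0.45, the 18 with over 600 and up to 900 bases -0.07 and the 4 longer ones -0.10. Genes outside the set had medians of 1.23, 0.57, 0.19 and -0.27 in the same 4 bands. In the membrane fraction the members' medians were 1.15, 0.59, 0.26 and 0.17, and those of other genes 1.01, 0.46, 0.17 and -0.15. In the cytosolic fraction members of up to 900 bases thus lay at or below other genes of their length, and in the membrane fraction members lay above them in each band. Across members, Spearman's rho between coding length and the log2 fold change was -0.77 (79 members, cytosolic) and -0.75 (membrane), and across all genes with a coding length -0.40 and -0.37. These points share their libraries, so the coefficients are descriptions. No value here separates length from other traits of short messages.

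**Figure D3:**
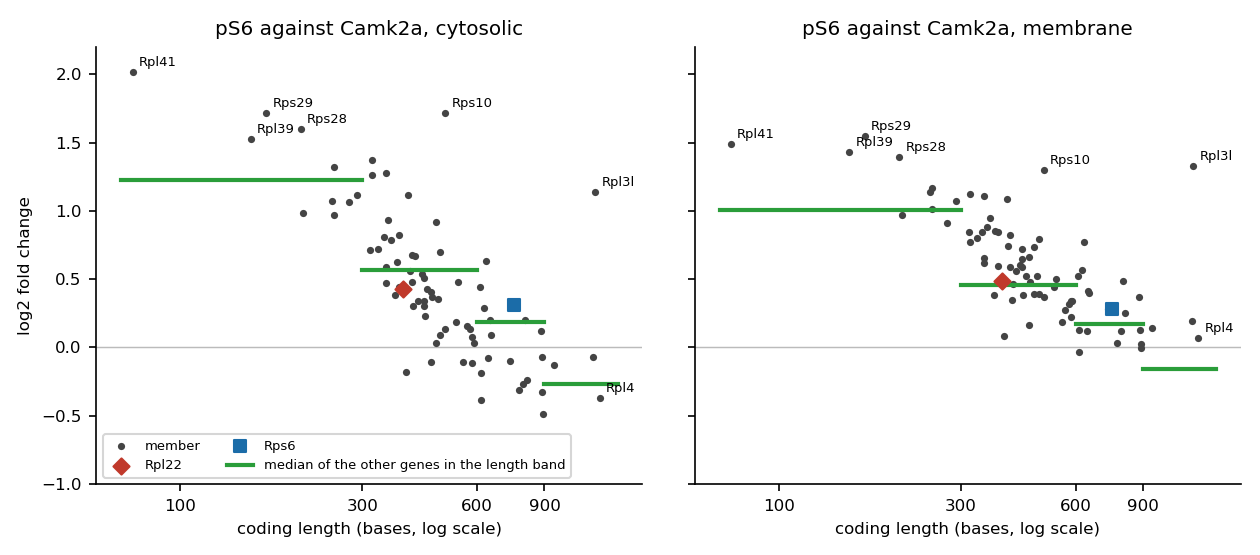
Log2 fold change of pS6 against Camk2a (vertical axis) for each member by the length of its coding sequence in bases (horizontal axis, log scale), in the cytosolic (left) and membrane (right) fraction, with green lines at the medians of other genes in 4 length bands. The shortest members, Rpl41, Rpl39, Rps29 and Rps28, lie near 1.5 or above, and members over 600 bases lie mostly near 0 in the cytosolic fraction, with the low-count genes Rps10 and Rpl3l above others of their length. A red diamond marks Rpl22 and a blue square Rps6.

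Against the Input, the 2 captures moved the members in different ways. The comparisons with Input share its libraries with each other, so their values are given side by side. In the cytosolic fraction 8 of 80 members were higher and 53 lower in Camk2a than in Input (81.7% of all genes passed, 38.6% as higher and 43.1% as lower), with a median of -0.25 against -0.03 over all genes. In pS6 against Input 53 were higher and 17 lower (85.1% passed, 40.5% as higher and 44.6% as lower), with a median of 0.24 against -0.04. On membranes 26 of 78 were higher and 33 lower in Camk2a (82.7% passed, 40.3% as higher and 42.3% as lower), with a median of -0.02 against -0.02. In membrane pS6 76 of 79 were higher and 0 lower (75.5% passed, 35.4% as higher and 40.1% as lower), with a median of 0.48 against -0.04. Rpl3l passed the filter on low counts in both pS6 types and in neither Input type, so it had to be higher in pS6. Rps10 and Rpl36al passed it in membrane pS6 and not in membrane Input, with the same limit where counted. Rpl36al also passed it in cytosolic Input and not in cytosolic Camk2a. Rps27 and Rps29 were the only members at least 2-fold lower in cytosolic Camk2a than in Input, as were 16.5% of all genes. Rps27 had a log2 fold change of -1.20 ± 0.07 in cytosolic Camk2a (median 12.8 CPM against 33.1, edgeR adjusted p = 3.51e-24) and Rps29 one of -1.11 ± 0.09. In cytosolic pS6 the same 2 genes were higher than in Input, by 0.23 ± 0.06 and 0.71 ± 0.08. Members with up to 300 coding bases had a median of -0.74 in cytosolic Camk2a against Input, other genes of that length -0.31.

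Markers of other cell types also differed between the 2 captures, and against Input the lists went in different directions. All 10 of 10 markers each of astrocytes, oligodendrocytes, microglia and vascular cells were higher in pS6 than in Camk2a in both fractions, with list medians of 1.57 to 2.59 in the cytosolic and 0.57 to 1.23 in the membrane fraction, and 9 of 10 inhibitory neuron markers were higher too (medians 3.57 and 1.84). The summed astrocyte markers ran from 197 to 445 CPM in cytosolic Camk2a and from 629 to 2898 in cytosolic pS6. The summed inhibitory neuron markers ran from 177 to 275 and from 797 to 1290 CPM. Of 9 excitatory neuron markers 2 were higher and 7 lower in cytosolic pS6 than in cytosolic Camk2a. The summed choroid plexus markers had medians of 36.1 and 33.3 CPM in cytosolic Camk2a and pS6, and 48.1 and 102 on membranes. From membrane Input to membrane pS6 the median sums fell for astrocytes (15620 to 10760 CPM), oligodendrocytes (6502 to 2957) and microglia (1169 to 698). They rose for inhibitory (1377 to 1694) and excitatory neurons (7861 to 9202), vascular and blood markers (372 to 935) and choroid plexus (46.8 to 102). No marker was at 0 in all libraries of a type. In bulk samples fewer cells of a type and less RNA per cell cannot be told apart, and the part of the cell mix in the members' differences was not tested.

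Between fractions, more members were lower than higher on membranes with TMM scaling, as were more of all genes. Of 78 members tested in Camk2a, 17 were higher on membranes and 43 lower (90.2% of all genes passed, 43.1% as higher and 47.1% as lower), with a median of -0.15 against -0.07 over all genes. In pS6 25 of 80 were higher and 35 lower (85.4% passed, 42.1% as higher and 43.4% as lower), with a median of -0.07 against -0.03. In Input 8 of 79 were higher and 59 lower (88.6% passed, 40.3% as higher and 48.3% as lower), with a median of -0.34 against -0.12. Rps10 passed the filter on low counts in cytosolic Camk2a and Input and not in their membrane counterparts, and Rpl36al in cytosolic and not in membrane Input. Their values there describe genes let in by the cytosolic libraries. Of 78 members tested in all 3, 30 were lower in each, 8 were higher in each (among them Rpl37, Rps27, Rps28, Rps29 and Rpsa), and 10 were higher in one and lower in another. With median-of-ratios size factors in place of TMM the median of all genes moved up by 0.10 in Input, 0.08 in Camk2a and 0.06 in pS6. The split in Camk2a became 24 higher and 38 lower and in pS6 31 higher and 29 lower, so the excess of lower members in pS6 rests on the scaling. With TMM the share of members that were lower in pS6 was already close to that of all genes. The shares of all genes with size factors are not given here.

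Rps27, a small subunit protein with a zinc finger, had the largest difference toward the membrane fraction in Camk2a. Its lowest, median and highest CPM were 10.2, 12.8 and 19.6 in the cytosolic and 15.9, 22.7 and 27.7 in the membrane libraries, and it was higher on membranes in 30 of 30 mice (0.96 ± 0.06, edgeR adjusted p = 6.42e-22). In pS6 its difference was 0.61 ± 0.06 and in Input 0.22 ± 0.06. Rpsa, the laminin receptor homologue of the small subunit, ran from 65.5 to 106 CPM (median 78.3) in the cytosolic and from 87.6 to 138 CPM (median 111) in the membrane Camk2a libraries. It was higher on membranes by 0.69 ± 0.04 in Camk2a and 0.83 ± 0.04 in pS6, in 30 of 30 mice each, and by 0.17 ± 0.04 in Input. Rps2 and Rpl9 were higher on membranes in both captures, by 0.45 ± 0.04 and 0.50 ± 0.05 in Camk2a and by 0.64 ± 0.04 and 0.63 ± 0.04 in pS6. In Input their differences were 0.06 ± 0.04 and -0.01 ± 0.04, which did not pass.

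At the other end stood Rpl15, a core protein of the large subunit, with medians of 82.2 CPM in cytosolic and 38.8 CPM in membrane Camk2a and ranges that did not overlap. It was lower on membranes by a log2 fold change of -0.82 ± 0.03 in Camk2a (edgeR adjusted p = 1.64e-36), -0.53 ± 0.03 in pS6 and -0.92 ± 0.03 in Input, in 30 of 30 mice each. Rpl6, Rpl7, Rpl27 and Rps13 were lower by -0.64 to -0.75 in Camk2a, with values of -0.75 ± 0.04, -0.66 ± 0.03, -0.64 ± 0.06 and -0.64 ± 0.06. Rpl41 changed direction with the library: it was higher on membranes in Camk2a (0.42 ± 0.06, 29 of 30 mice) and lower in pS6 (-0.16 ± 0.06, 21 of 30) and Input (-0.15 ± 0.06, 22 of 30). The 10 members of up to 300 coding bases had a median of 0.42 between fractions in Camk2a, where other genes of that length had -0.26, while the 46 with over 300 and up to 600 bases had -0.19 and other such genes -0.42. Beside these, all 10 astrocyte, oligodendrocyte, microglia and vascular markers were higher in membrane than in cytosolic Camk2a (list medians 3.11 to 4.99), and the part of other cells' RNA in the fraction differences was not tested.

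**Figure D4:**
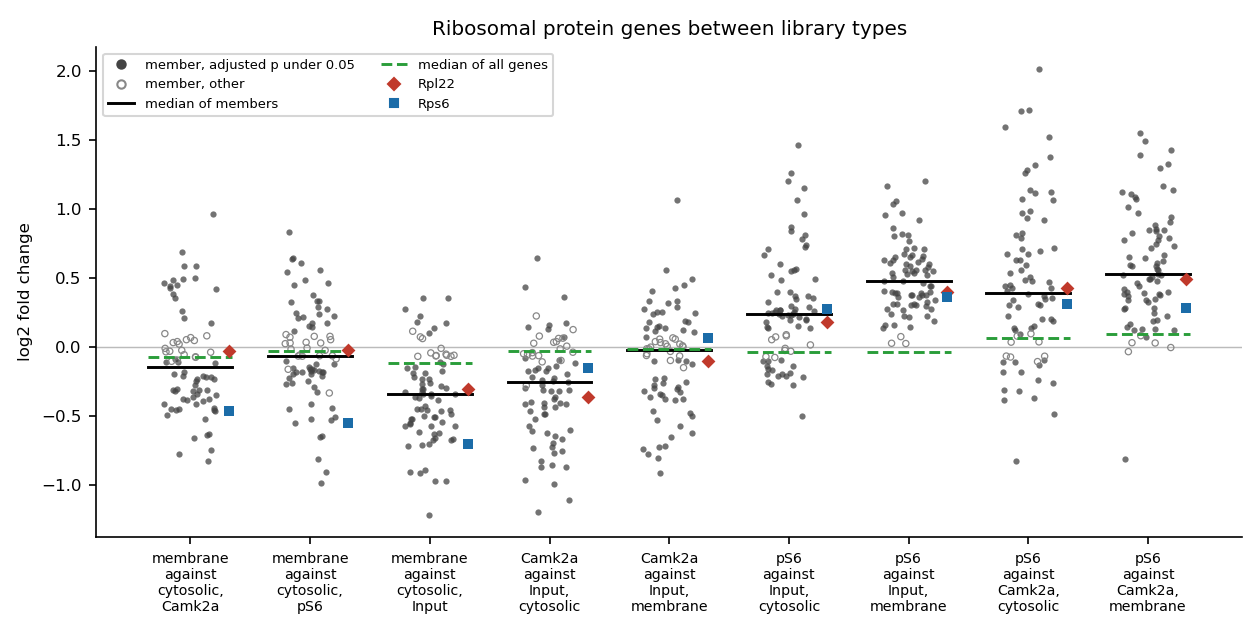
Log2 fold change (vertical axis) of each tested member in the 9 comparisons between library types (horizontal axis), filled where the edgeR adjusted p is under 0.05, with black lines at the members' medians, dashed green lines at the medians of all genes, a red diamond for Rpl22 and a blue square for Rps6. Members spread over more than 1 log2 unit in each comparison, and their median stands above that of all genes in the 4 comparisons of pS6 with Camk2a or Input.

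The 3 stalk genes, whose products recruit elongation factors to the large subunit, did not move as one. Rplp1 was higher in pS6 than in Camk2a by 0.81 ± 0.06 for cytosolic and 0.85 ± 0.06 for membrane libraries (30 of 30 mice each) and Rplp2 by 0.47 ± 0.06 and 0.62 ± 0.06. Rplp0, the anchor of the stalk and the longest of the 3, was lower by -0.13 ± 0.04 in cytosolic pS6 (edgeR adjusted p = 0.00093) and higher by 0.14 ± 0.03 in membrane pS6. The call for Rplp0, pS6 against Camk2a, cytosolic, was lost with median-of-ratios size factors (-0.07, edgeR adjusted p = 0.0754). Between fractions in Camk2a Rplp1 was higher on membranes (0.35 ± 0.07), Rplp2 lower (-0.36 ± 0.07), and Rplp0 had a value of -0.01 ± 0.03.

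Among tested members that are paralogs of another ribosomal protein gene, Rps4l was the only one called lower in membrane pS6 than in membrane Camk2a. The annotation lists it as a transcribed processed pseudogene of the X-linked Rps4x, and 14.9% of its stretches of 50 bases are shared with another gene. Its lowest, median and highest CPM were 59.6, 82.0 and 115 in cytosolic Camk2a, 41.6, 58.6 and 76.8 in cytosolic Input, and 37.2, 51.7 and 65.5 in cytosolic pS6. It was higher in Camk2a than in Input by 0.64 ± 0.06 for cytosolic and 1.07 ± 0.06 for membrane libraries, in 30 of 30 mice each, while Rps4x had differences of -0.04 ± 0.04 and 0.14 ± 0.04. Rps4l was also lower on membranes in Input by -1.22 ± 0.06, the only member past 2-fold in that comparison, where 8.97% of all genes were lower by that much, and Rps4x by -0.50 ± 0.04. Rpl22l1, the paralog of the tagged Rpl22, had median CPM values between 6.47 (membrane Input) and 21.04 (cytosolic pS6). It was lower on membranes in Input by -0.98 ± 0.06 and higher in membrane pS6 than in membrane Input by 0.96 ± 0.07, where Rpl22 differed by -0.31 ± 0.03 and 0.40 ± 0.04. Like Rps4l, Rpl22l1 was higher in membrane Camk2a than in membrane Input, by 0.56, next after Rps4l among the members. Rps27l was higher in pS6 than in Camk2a by 0.97 ± 0.05 and 1.17 ± 0.07, and Rps27 by 1.32 ± 0.06 and 1.02 ± 0.06. Rpl36al, with medians of 0.209 to 1.01 CPM, had a cytosolic pS6 to Camk2a value of 1.38 ± 0.15 and its partner Rpl36a one of 1.26 ± 0.05. Rpl3l, the heart and muscle form, had medians of at most 0.552 CPM and a value of 1.14 ± 0.23, where Rpl3 had -0.07 ± 0.04. Neither Rpl36al nor Rpl3l passed the filter on low counts in the Camk2a libraries, so their values describe genes let in by pS6. Rpl10l, Rpl39l and the annotated processed pseudogenes Rpl6l and Rpl32l had too few counts to be tested in any type.

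In the cytosolic pS6 to Camk2a comparison, other genes of the translation machinery had lower medians than the members. These lists were not matched to the members for coding length, and genes outside the set with over 900 coding bases had a median of -0.27 there. Of 22 genes with TOP messages outside the symbol rule, 4 were higher and 18 lower in cytosolic pS6 than in Camk2a, with a median of -0.30 against 0.39 for the members. Among those higher were Fau (0.22 ± 0.06), which encodes a ribosomal protein fused to a ubiquitin-like protein, the poly(A)-binding protein gene Pabpc1 (0.30 ± 0.03) and Tpt1 (0.10 ± 0.03). Among the lower ones the elongation factor genes Eef1a1 and Eef2 differed by -0.08 ± 0.03 and -0.28 ± 0.03, the ribosome-bound scaffold gene Rack1 by -0.22 ± 0.04, and the initiation factor genes Eif3l and Eif4b by -1.13 ± 0.03 and -0.84 ± 0.03. Of 36 ribosome biogenesis genes 5 were higher and 30 lower (median -0.59), and of 80 tested genes of mitochondrial ribosomal proteins 37 were higher and 34 lower (median 0.03). In sum, the mitochondrial set was higher in pS6, at 4619 to 5598 CPM against 3616 to 4603 in cytosolic Camk2a, ranges that did not overlap, with medians of 2483 against 2049 CPM on membranes. Among annotated pseudogenes of ribosomal proteins 19 of 38 tested were higher and 4 lower, with a median of 0.30. Between fractions the mitochondrial ribosomal protein genes were lower on membranes in 76 of 79 cases in Camk2a (median -0.70), 77 of 80 in pS6 (-0.71) and 76 of 78 in Input (-0.89).

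Of 19 tested genes on the path from mTORC1 to S6 kinase and its targets, 8 were higher and 11 lower in cytosolic pS6 than in cytosolic Camk2a. Rheb, the activator of mTORC1, was higher by 0.65 ± 0.02 and Larp1, which binds TOP messages, by 0.60 ± 0.03. Mtor itself was lower by -1.83 ± 0.04 and the restraining genes Tsc1 and Tsc2 by -0.88 ± 0.04 and -1.44 ± 0.04. Rps6kb1, the gene of the main S6 kinase, was lower by -0.43 ± 0.03. The part of coding length in the values of these genes was not tested. For the pyrimidine runs described above, the 37 tested members with a pyrimidine run near the start had a median of 0.47 in this comparison and the 22 without one 0.30, given with no test.

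Sleep deprivation changed no member past the threshold in any library type. The tested members numbered 78 in cytosolic Camk2a, 77 in membrane Camk2a, 80 in each pS6 type, 79 in cytosolic and 77 in membrane Input, and 0 were called by edgeR's quasi-likelihood test with Benjamini-Hochberg adjustment. Over all genes the test called 6.28%, 2.97%, 7.88%, 1.73%, 3.17% and 1.37% in the same fits, in the order cytosolic and membrane Camk2a, cytosolic and membrane pS6, cytosolic and membrane Input. At an unadjusted p under 0.05 the members numbered 0, 1, 0, 7, 1 and 1, and DESeq2 called 0 in each type. The median member differed between SD and Sleep by -0.03, -0.01, -0.03, 0.07, -0.03 and -0.04 on the log2 scale, against values of all genes between -0.01 and 0.01. Without mice 12 and 19 the value of 0.07 in membrane pS6 became 0.04, and 2 members in place of 7 had an unadjusted p under 0.05. A p that misses the threshold does not show that the groups are alike.

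No single member passed the threshold, though some differed by more than the median member did. In membrane pS6 Rps27 differed by 0.213 ± 0.085 (edgeR adjusted p = 0.230, with 8 of 14 SD mice higher than the median of Sleep mice). Rps27l had the smallest adjusted p of the members in membrane pS6, with medians of 16.8 CPM in NoCFC Sleep, 18.8 in NoCFC SD, 18.7 in CFC Sleep and 19.4 in CFC SD, groups that overlap. Its difference of 0.31 ± 0.11 did not pass (edgeR adjusted p = 0.145). In membrane Camk2a Rps27l differed by 0.14 ± 0.07 (edgeR adjusted p = 0.306, with 10 of 14 SD mice higher than the median of Sleep mice). Rps6, whose protein's phosphorylation defines the pS6 capture, differed by -0.05 ± 0.05 in cytosolic and 0.03 ± 0.05 in membrane pS6, and by -0.01 ± 0.06 in cytosolic and -0.01 ± 0.05 in membrane Camk2a. Rpl22 differed by -0.02 ± 0.04 in cytosolic and -0.06 ± 0.05 in membrane Camk2a. The edgeR adjusted p values of these 2 genes were 0.675 or more in all 6 types. Within runs of mouse numbers the members' median in membrane pS6 was 0.15 for the first run (mice 1 to 11), -0.02 for the second (12 to 22) and 0.12 for the last (23 to 30), so its direction was not the same in each run. In cytosolic Camk2a it was -0.05, -0.12 and 0.10.

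Among genes of ribosome biogenesis and of the path from mTORC1 to S6 kinase, some were called under SD. In cytosolic Camk2a, where 6.28% of all genes were called, 4 of 36 biogenesis genes were higher and 1 lower after SD: Polr1b, a subunit of RNA polymerase I, by 0.28 ± 0.06, Nob1, Nop2 and Ebna1bp2 by 0.14 ± 0.04, 0.10 ± 0.03 and 0.09 ± 0.03, and Riok2 by -0.16 ± 0.04. Eif4ebp2, a repressor of cap-dependent translation downstream of mTORC1, was higher by 0.26 ± 0.07 in cytosolic Camk2a and 0.22 ± 0.05 in cytosolic pS6. In cytosolic pS6 7.88% of all genes were called. The number called in the whole mTORC1 list, and in the biogenesis list in other types, is not given here. None of the 22 TOP genes outside the rule was called in any type. The test of whether the SD effect differed between fractions or captures called 0 members, and the members' medians of that difference lay between -0.01 and 0.11. Of all genes, that test called 0% between fractions in each kind of library, 0.586% between captures for cytosolic and 0.0589% for membrane libraries.

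CFC mice differed from NoCFC mice past the threshold in 3 members in membrane Camk2a and 1 in membrane pS6, and whether the types differ in this was not tested. In membrane Camk2a 3 of 77 members were lower, where 17% of all genes were called, 7.17% as lower, and the members' median was -0.09 against -0.01. Rps27a, a ribosomal protein made as a fusion with ubiquitin, had medians of 43.8 CPM in NoCFC Sleep, 45.4 in NoCFC SD, 38.9 in CFC Sleep and 38.9 in CFC SD (-0.18 ± 0.06, edgeR adjusted p = 0.0314, above the NoCFC median in 1 of 15 CFC mice). Rpsa had medians of 116, 114, 102 and 104 CPM in the same order (-0.17 ± 0.06, edgeR adjusted p = 0.0314) and Rpl23 34.4, 33.5, 29.9 and 29.4 CPM (-0.16 ± 0.06, edgeR adjusted p = 0.0449). The ranges of CFC and NoCFC mice overlapped for all 3 genes. In membrane pS6 1 of 80 members was higher, where 16.8% of all genes were called, 8.10% as higher: Rps28, with group medians of 18.4, 21, 24.9 and 23.2 CPM (0.31 ± 0.10, edgeR adjusted p = 0.0213, 14 of 15 CFC mice above the NoCFC median). In the other 4 types 0 members were called, where 0.148% (cytosolic Camk2a), 0.133% (cytosolic pS6), 0.219% (cytosolic Input) and 6.53% (membrane Input) of all genes were. At an unadjusted p under 0.05 those 4 types had 1, 1, 0 and 11 members, and DESeq2 called 0, 0, 0 and 1. The members' medians were 0.05, 0.01, -0.02 and 0.06 there.

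These training values cannot be told apart from the mouse numbers. Mice 1 to 11 were all NoCFC and mice 12 to 22 all CFC, and mice 23 to 30 held 2 of each group. With the run of numbers as a term, Rps27a, Rpsa, Rpl23 and Rps28 had differences of -0.01, -0.03, -0.07 and 0.18, with edgeR adjusted p values of 0.876 or more, and 0 members were called in any type. In mice 23 to 30 alone the members' median was 0.02 in membrane Camk2a and 0.01 in membrane pS6. Without mice 12 and 19, which had the highest astrocyte marker sums in membrane pS6 (23100 and 25960 CPM, where the median library had 10760), Rps28 had 0.24 (edgeR adjusted p = 0.0577). Without mice 2, 7, 14, 18, 22 and 29, which had the 6 highest choroid plexus marker sums in membrane pS6 (4248 to 13850 CPM, where other mice had at most 4101), 0 members were called in membrane Camk2a and 9 in membrane pS6.

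The training by sleep interaction, tested with edgeR, called 0 members in each of the 6 types, and 0 of all genes tested (0%). DESeq2 also called 0 members in each. In membrane pS6 the members' median interaction was -0.23, against 0.00 over all genes, with 3 of 80 members above 0 and 13 at an unadjusted p under 0.05. Rpl37a illustrates it, with medians of 72.9 CPM in NoCFC Sleep, 91.4 in NoCFC SD, 87.7 in CFC Sleep and 78.2 in CFC SD and ranges of 60.4 to 87.3, 75.8 to 107, 73.2 to 101 and 70.02 to 114 that overlap throughout. Its interaction was -0.44 ± 0.14 with an edgeR adjusted p of 0.9997. In cytosolic pS6 the members' median interaction had the other sign, 0.12, with 73 of 80 members above 0 and 3 at an unadjusted p under 0.05, and in the Camk2a and Input types the number at that p was 0 or 1. Members of a library rise and fall together, so the shared sign of many members is not many observations. The SD differences of NoCFC mice come mostly from mice 1 to 11 and those of CFC mice mostly from mice 12 to 22. An interaction therefore cannot be told apart from an SD difference that varies between runs of mouse numbers.

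**Figure D5:**
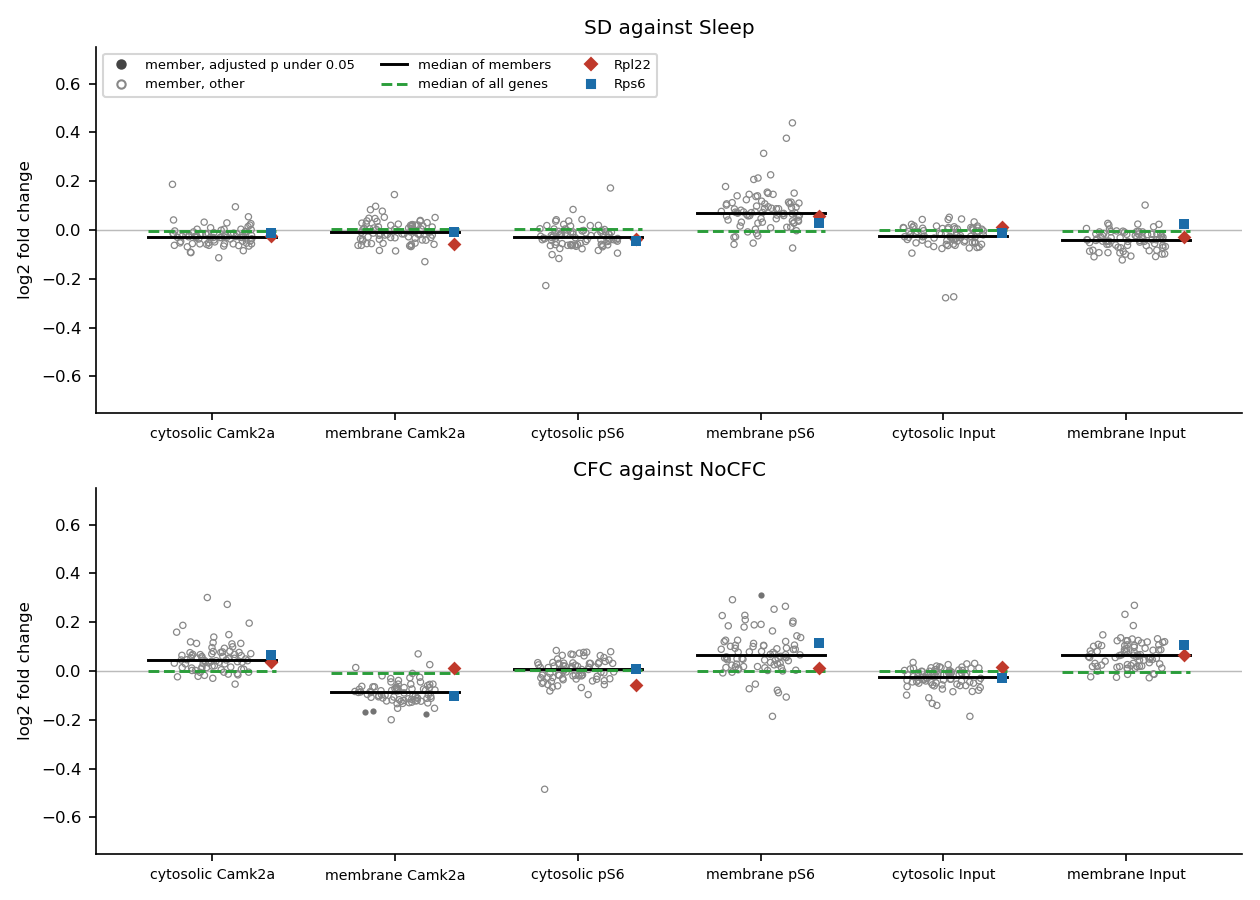
Log2 fold change (vertical axis) of each tested member in the 6 library types (horizontal axis) for SD against Sleep (top) and CFC against NoCFC (bottom), filled where the edgeR adjusted p is under 0.05, with black lines at the members' medians, dashed green lines at the medians of all genes, and Rpl22 and Rps6 marked. No member is filled in the top panel and 4 are filled in the bottom panel, 3 in membrane Camk2a and 1 in membrane pS6.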

How the data were processed

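The deposited file is a table of raw read counts per gene for all 180 libraries. Per the submitters' processing notes the sources name STAR 2.6.1a, featureCounts, MultiQC 1.6a0 and the build GRCm38.p6, and the strand setting and the handling of reads that match several genes are not given in the sources used here. Per the labels' protocols, libraries were made with SMART-seq v4. From the counts, CPM was computed over each library's total, and differences were tested with edgeR 4.0.16 in R 4.3.3 (quasi-likelihood, filterByExpr, TMM scaling, Benjamini-Hochberg adjustment over all genes tested, threshold 0.05). Effects of SD, CFC and their interaction were fitted in each library type over 4 group means, and library types were compared in fits of 60 libraries over 8 group means. A mouse counts as higher where its TMM-scaled CPM is higher in the first-named library type of the same mouse, or above the median of the comparison group in the same arm.

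Same-numbered libraries come from the same animal. Their deviations from group means correlated at a median of 0.25, against -0.01 for libraries of different mice. Pairs of libraries of 1 group differed by at least 3.09 in chi-square per degree of freedom, beyond counting noise. The labels name no batch.

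The genes named are Rpl22 and Rps6, paralogs whose symbols end in l with their partners, the stalk genes, the 3 highest and 3 lowest members by level, up to 5 higher and 5 lower members past the threshold in each comparison, and genes of the lists. The members and lists were chosen with earlier results of these data known. Other settings were median-of-ratios size factors, no filter, DESeq2 1.42.0, the run of mouse numbers as a term and mouse as a block. Odd or even number as a term, fits within runs and fits without 2 or 6 mice were chosen after seeing the data. The fits were tested on simulated counts. Start-site sequences are from RefSeq, on GRCm38.p6. Some genes are not reported by name here.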

Additional observations from a re-analysis of the deposited data

Results flagged for a closer look

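Within each group of 7 or 8 libraries of 1 type, the highest and lowest value of the summed CPM of the ribosomal protein genes, of Rpl22 and of Rps6 were compared with the nearest other library. This made 72 checks, and chance sets about 1 in 20 such checks apart. The values flagged below are about as many as that share gives. The sum includes Rpl22 and Rps6, so the checks overlap. The membrane pS6 library of mouse 19 (CFC SD) stood above its group both in the summed CPM of the ribosomal protein genes, at 6593, and in Rpl22, at 52.0 CPM. The same library had the highest astrocyte marker sum of its type, 25960 CPM, and the part of that in these values was not tested. The membrane Input library of mouse 29 (CFC SD) stood above its group with a summed CPM of 4215. The cytosolic Camk2a library of mouse 27 (NoCFC SD) stood above its group in Rpl22, at 35.1 CPM.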

How the results depend on the processing

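Counts of members called between library types changed little with mouse as a block, but with most members called they had little room to move. With mouse as a replicate block, members called numbered 64, 62 and 67 between fractions in Camk2a, pS6 and Input, 66, 73 and 78 in the cytosolic and 59, 76 and 75 in the membrane fraction for Camk2a against Input, pS6 against Input and pS6 against Camk2a, each within 1.5 times the count without the block. For SD and for the interaction, 0 members were called under each setting run. Training calls depended on the setting. In membrane Camk2a, where 3 members were called, 0 were with the run of mouse numbers as a term, 9 with odd or even number as a term and 0 without mice 2, 7, 14, 18, 22 and 29. In membrane pS6, where 1 was called, 5 were with median-of-ratios size factors, 2 with no filter, 5 with DESeq2, 0 with the run term, 12 with the odd or even term, 0 without mice 12 and 19 and 9 without the 6 mice. In membrane Input, where 0 were called, DESeq2 called 1 and the odd or even term 2. The cause of these shifts was not tested. Of the members' medians over all comparisons and settings, 24 moved and 210 did not. Between fractions, size factors gave -0.07 in Camk2a, -0.01 in pS6 and -0.24 in Input, in place of -0.15, -0.07 and -0.34. Rpl3l, at low counts, lost its calls in membrane pS6 without the 6 mice (0.88 against Camk2a and 0.62 against Input). For single genes called and checked under other settings, 991 results held, 15 lost their call and none changed sign. The balance of higher and lower members between fractions in pS6 did turn with size factors, as given with that comparison. Depth limits the members at the lowest counts, 5 of which were tested in no type. Leaving out single mice was not run, since each group held 7 or 8.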
